A study of Mus musculus with 8 samples.

Results

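The neuregulins and the ErbB receptors are 8 genes of 1 signalling system, 4 ligands (Nrg1, Nrg2, Nrg3 and Nrg4) and 4 receptors (Egfr, Erbb2, Erbb3 and Erbb4). They were taken by their symbol in GENCODE M21, an annotation of the mouse build GRCm38, and are 8 of the 55450 genes in the count tables. The values are nuclear RNA sequencing counts from fluorescent nuclei that were sorted from the cortex of juvenile mice, with 1 individual cortex behind each library per the labels. Control mice were Thra+/+, and mutant mice were Thra+/AMI, which carry 1 Thra allele encoding a dominant-negative thyroid hormone receptor. A Cre driver that the labels do not name limited both the fluorescent nuclear reporter and the mutant receptor to GABAergic neurons, which are the inhibitory cells of the cortex, and fluorescent nuclei were sorted in both groups. Other cells of the mutant animals are thus outside the stated expression of the receptor, and counts per gene add both Thra alleles. Of 4 libraries labelled mutant, the tables of mutants 7 and 10 held the same count in all 55220 genes that could be matched, with 0 genes that differed, and they were counted as 1 library. Mutants 6, 7 and 8 (n = 3) were therefore compared with controls 1 to 4 (n = 4).

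Neuregulins are ligands with an EGF-like domain, most of them made as membrane-bound precursors that proteases release. They bind ErbB3 or ErbB4, which pair with one another or with ErbB2 and then phosphorylate tyrosines in their cytoplasmic tails, so that adaptors and kinases of the Ras and phosphoinositide pathways can dock. In the cortex, ErbB4 is known as a receptor of GABAergic interneurons, and those that express parvalbumin in particular, where it takes part in the formation of excitatory synapses onto these cells. The thyroid hormone receptor encoded by Thra is a transcription factor that binds DNA at pairs of a hexamer related to AGGTCA.

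The 250 bases before the RefSeq transcription start of these genes were read for the hexamer AGGTCA and its reverse complement TGACCT, the only motif searched. RefSeq promoters were at hand for 5 of the 8 genes, namely Nrg3, Nrg4, Egfr, Erbb2 and Erbb4 (build GRCm38.p6). Of 32851 promoters of that length in the table, 14.02% held at least 1 match and 1.358% held at least 2. Nrg4 held 2 matches, whose first bases lie 90 and 26 bases before the start, and the other 4 genes held 0. Sequences are shown for Nrg3 and Erbb4, the most abundant ligand and receptor in these nuclei, and for Nrg4, the gene with the matches. They are written 5′ to 3′ on the strand of the gene, and capitals mark the hexamer. They cover chr14:39473089-39473338, chr1:69108060-69108309 and chr9:55283626-55283875, all on the minus strand. The RefSeq start of Nrg4 lies inside the GENCODE span of the gene. A match is a run of letters and not evidence of a bound site.
Nrg3: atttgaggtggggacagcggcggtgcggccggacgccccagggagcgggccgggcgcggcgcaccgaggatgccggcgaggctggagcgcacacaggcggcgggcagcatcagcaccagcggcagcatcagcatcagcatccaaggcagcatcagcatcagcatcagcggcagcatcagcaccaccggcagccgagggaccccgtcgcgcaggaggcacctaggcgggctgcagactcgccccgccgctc
Erbb4: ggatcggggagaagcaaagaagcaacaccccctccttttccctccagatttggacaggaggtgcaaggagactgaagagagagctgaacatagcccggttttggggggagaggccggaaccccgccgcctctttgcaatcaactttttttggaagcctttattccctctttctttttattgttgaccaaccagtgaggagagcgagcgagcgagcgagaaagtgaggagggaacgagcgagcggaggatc
Nrg4: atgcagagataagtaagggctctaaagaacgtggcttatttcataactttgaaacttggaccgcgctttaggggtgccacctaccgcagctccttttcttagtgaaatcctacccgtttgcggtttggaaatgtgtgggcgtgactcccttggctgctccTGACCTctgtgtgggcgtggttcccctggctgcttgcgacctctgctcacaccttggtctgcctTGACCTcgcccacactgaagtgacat

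Total counts per library ran from 10747169 to 13804734, so 1 CPM (a count scaled to the library total, here with TMM factors) stood for 10.75 reads in the smallest library. Across all genes, 16448 passed the filter on low counts, and 1549 of them (9.42%) were called, which means that mutant and control differed in edgeR's quasi-likelihood test at a Benjamini-Hochberg adjusted p under 0.05, 762 higher and 787 lower. Thra itself was at 108, 125.5, 118.8 and 105.5 CPM in controls 1 to 4 and at 77.6, 96.3 and 88.6 CPM in mutants 6 to 8, groups that did not overlap, but its adjusted p of 0.0543 missed the threshold (log2 fold change -0.39, SE 0.11). Thra was lower in mutants in all 22 alternatives and called in 13 of them, among them the length offset described below (adjusted p 0.0104) and DESeq2 (adjusted p 0.0284). Of these calls, 6 came from the 7 fits with that offset and 1 library left out. The 7 such fits without the offset gave 2, and the other 8 alternatives gave 5. The libraries differed in how they counted long genes. The 97 tested genes with a genomic span over 800 kb were at a median 2.29-fold higher level in control 4 than in control 1, whereas the 4563 genes under 10 kb were at 0.723 of the level in control 1. Nrg1, Nrg3 and Erbb4 are among those 97 genes, so each long gene is given both as CPM and after an offset that removes the smooth trend of counts with genomic length in each library. Summed reads of 4 Y-linked genes were 3 to 4 in control 4 and mutant 8 and 5094 to 6644 in the other 5 libraries. Several results are therefore also given without control 4 and mutant 8, but only from fits without the length offset and from read ratios. Calls made with the offset and marker genes are not given without both. In that fit Thra was at -0.43 (edgeR adjusted p 0.0644), Egfr at 0.45 (0.0890) and Erbb4 at 0.48 (0.239), and these were not called. Genes that lie wholly within the span of another gene are listed at 0 in every library (13036 of 13036), antisense genes in Nrg3 and Egfr among them, so the counts say nothing of such genes.

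All 8 genes passed the filter, and they took 0.455% to 0.713% of all counts in a library. Most of these reads came from Erbb4 and Nrg3. By mean CPM, Erbb4 ranked 6 and Nrg3 ranked 14 among the 16448 tested genes. Nrg1 followed at rank 236, Nrg2 at 2674, Egfr at 3115 and Nrg4 at 12094, while Erbb2 (14990) and Erbb3 (15960) lay near the lower limit of detection.

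**Figure D1:**
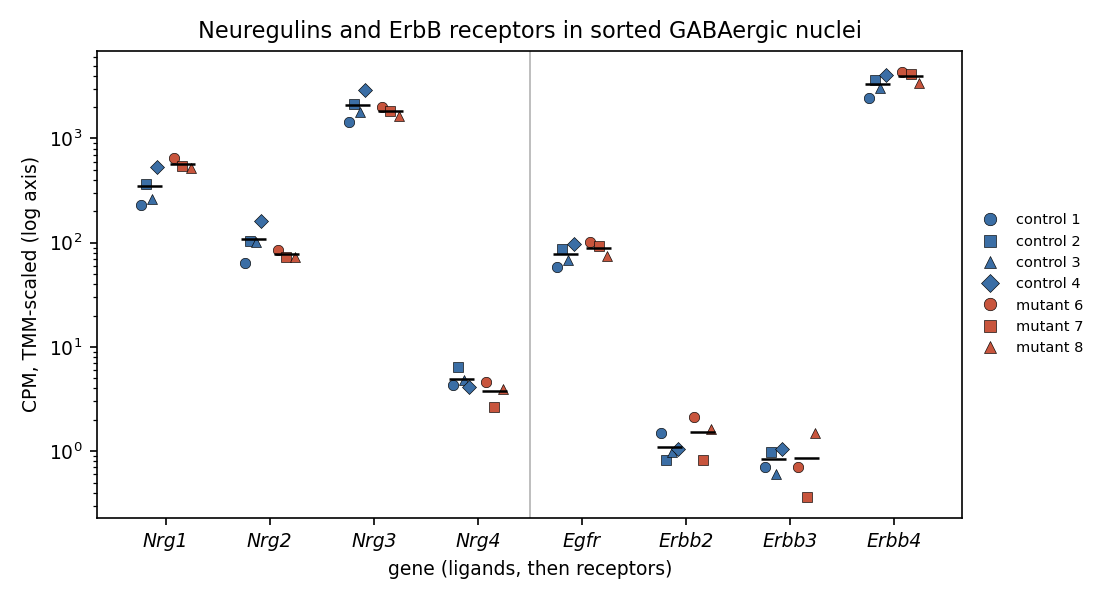
CPM of the 8 genes (log axis) in each of 4 control (blue) and 3 mutant (red) libraries, with marker shapes for single libraries and a bar at the group mean. Erbb4 and Nrg3 lie at 1440 CPM or above in all 7 libraries, and Erbb2 and Erbb3 lie between 0.367 and 2.11 CPM.

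Compared between genes per kilobase of genomic span, since nuclear RNA is rich in introns, Erbb4 was highest at 3.08 ± 0.66 CPM per kb in controls (SD, n = 4) and 3.69 ± 0.459 in mutants (SD, n = 3). Nrg3 came next at 1.88 ± 0.58 and 1.65 ± 0.178 CPM per kb of span. Erbb4 was above Nrg3 on this scale in 4 of 4 controls and 3 of 3 mutants. Nrg2, Egfr and Nrg1 formed a middle group whose order differed between the genotypes. In controls they were at 0.600 ± 0.224, 0.467 ± 0.103 and 0.325 ± 0.125 CPM per kb of span, and Nrg2 was above Nrg1 in 4 of 4 libraries. In mutants they were at 0.431 ± 0.036, 0.539 ± 0.083 and 0.536 ± 0.065 CPM per kb of span, and Nrg2 was above Nrg1 in 0 of 3. In controls the spreads of these 3 over libraries overlapped, but the order Nrg2, Egfr, Nrg1 was the same within each of the 4 libraries. In mutants Egfr and Nrg1 did too, whereas the highest Nrg2 library, at 0.472 CPM per kb of span, was below the lowest Nrg1 library at 0.489. Nrg4, Erbb2 and Erbb3 did not differ beyond their spread either, from 0.038 to 0.046 CPM per kb of span in controls and from 0.035 to 0.060 in mutants.

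The order of the highest 2 depended on the length used, and so did that of the middle and low genes. Per kilobase of exon, Nrg3 stood above Erbb4 in 4 of 4 controls, at means of 304.9 and 267.8 CPM per kb of exon. In mutants the order was the other way, with Erbb4 above Nrg3 in 3 of 3 libraries at means of 320.9 and 267.7 CPM per kb of exon. Nrg2 was above Nrg1 in 4 of 4 controls by span but in 2 of 4 by exon, and in 0 of 3 mutants on both scales. Egfr was above Nrg1 in 4 of 4 controls by span and in 0 of 4 by exon. Nrg4 was above Erbb2 in 2 of 4 controls and 0 of 3 mutants by span, and in 4 of 4 and 3 of 3 by exon. The counting rule is not given in the sources used here. Genes nested within others at 0, also where the outer gene is on the opposite strand only (6463 of 6463), are what counting over whole spans without strand would give, which bears on the span scale and not on the exon scale. The exon order is thus given as a further description only.

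None of the 8 genes was called between control and mutant (edgeR, 0 of 8 against 9.42% of all tested genes), and 1 of them, Nrg1, had an unadjusted p under 0.05. Their median log2 fold change was 0.13, beside -0.01 over all tested genes. With the length offset 2 of 8 were called, Nrg1 higher and Nrg2 lower in mutants, beside 16.7% of all tested genes. In bulk libraries such as these, fewer cells of a type and less RNA per cell cannot be told apart.

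**Figure D2:**
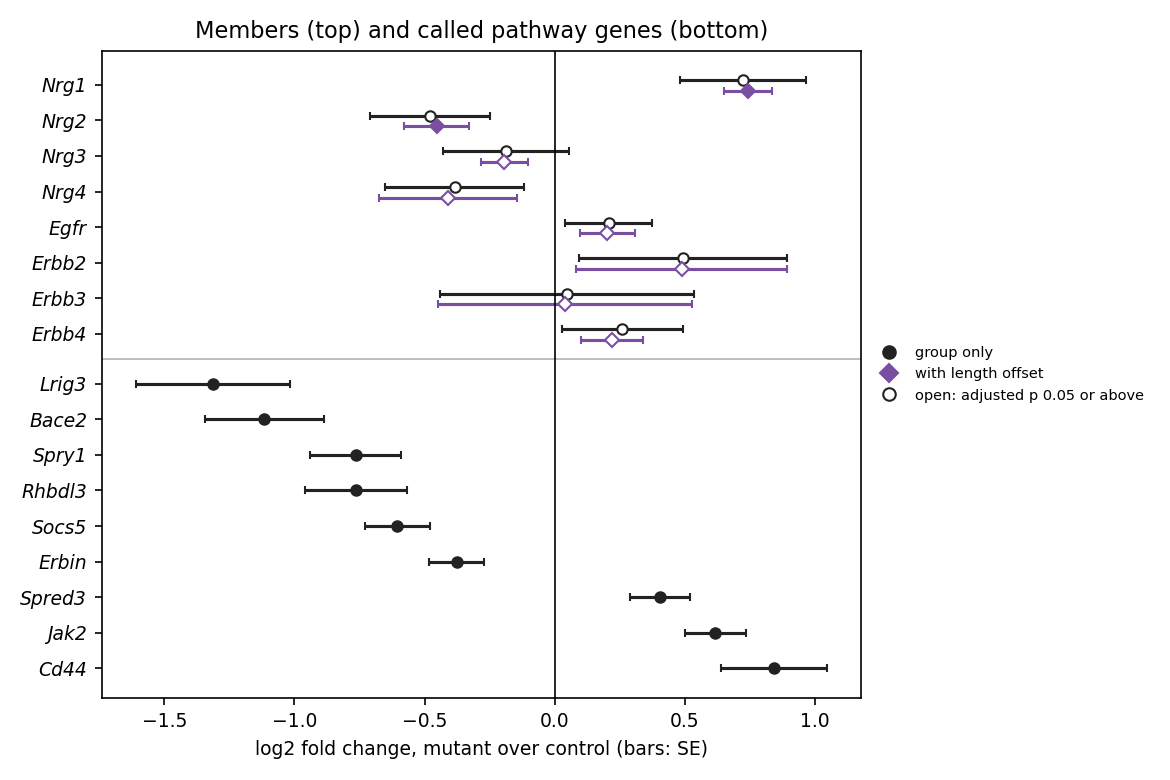
Log2 fold change of mutant over control, with SE bars, for the 8 genes (above the line; black circles, edgeR with group only; purple diamonds, with the length offset) and for the 9 called genes of the wider pathway (below, group only). Open symbols have an adjusted p of 0.05 or above, and of the 8 genes Nrg1 and Nrg2 have filled ones, both with the offset.

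Nrg1 showed the largest difference. Neuregulin 1 is the best studied of these ligands, made in many isoforms from several promoters, which gene counts do not separate. The gene (ENSMUSG00000062991.7, GRCm38 chromosome 8, 31814551 to 32884029, minus strand) spans 1069 kb. It was at 230.6, 366.2, 263.8 and 528.4 CPM in controls 1 to 4 and at 653.3, 544.3 and 523.0 CPM in mutants 6, 7 and 8, from 2908 to 8350 counts a library. Mutants were higher than controls 1, 2 and 3 throughout, and the groups overlapped through control 4 alone, which lay just above mutant 8. The means were 347.2 ± 133.8 CPM (SD, n = 4) and 573.5 ± 69.88 CPM (SD, n = 3). On the log2 scale the difference was 0.72 (SE 0.24). Its unadjusted p was 0.0113 and its adjusted p 0.0891 in edgeR, so it missed the threshold.

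After the length offset, Nrg1 was at 362.2, 354.9, 291.5 and 331.9 length-adjusted CPM in controls 1 to 4 and at 597.9, 549.8 and 535.3 in mutants 6 to 8. The controls drew together, from a 2.29-fold gap between controls 1 and 4 to a group mean of 335.1 ± 31.8 (SD, n = 4), and the groups no longer overlapped. Non-overlap held for 26.4% of tested genes on this scale and for 22% on plain CPM. With the offset, Nrg1 was 1.67-fold higher in mutants (log2 fold change 0.74, SE 0.09, edgeR adjusted p 2.993e-05). The call held when each of the 7 libraries was left out under the offset, with adjusted p from 3.25e-06 to 0.000549.

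**Figure D3:**
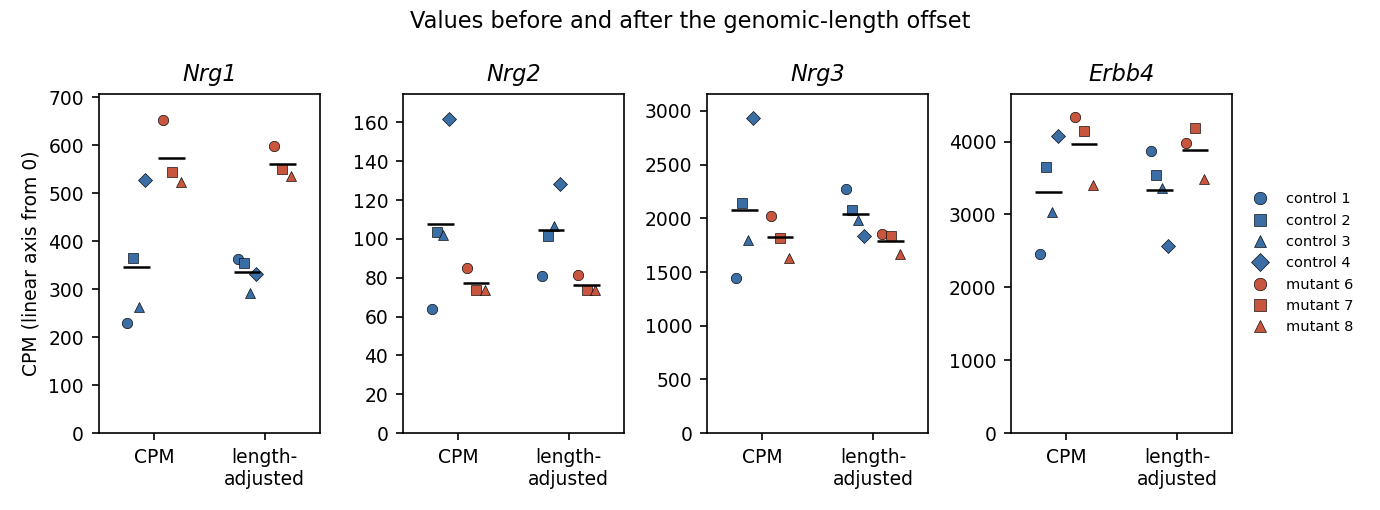
CPM (linear axes from 0) of Nrg1, Nrg2, Nrg3 and Erbb4 in each library before (left in each panel) and after (right) the offset for genomic length, with bars at group means. Controls 1 (circle) and 4 (diamond) trade places in Nrg3 and Erbb4, and the 4 controls of Nrg1 come to lie between 291.5 and 362.2, below all 3 mutants.

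Without the offset, the call of Nrg1 turned on the tool and on control 4. It was called without control 4 (log2 fold change 1.00, adjusted p 0.000541), and also without control 4 and mutant 8, the libraries without Y-linked reads (1.06, adjusted p 0.00288). The removal of any 1 of the other 6 libraries gave adjusted p from 0.0983 to 0.292. DESeq2 called Nrg1 alone of the 8 genes (adjusted p 0.0346, with 12.1% of all tested genes called). Limma-voom with sample quality weights called Nrg1 (0.87, adjusted p 0.000717) and Nrg2, with 19.1% of all genes. A fit with 1 surrogate variable also called Nrg1 (0.74, adjusted p 1.46e-06) and Nrg2, with 22.6% of all genes. Over 22 alternatives, Nrg1 was higher in mutants in every fit and called in 14. These calls include 7 of 7 fits with the offset and 1 library left out, which were added after the data were seen. Only 1 of 7 fits with 1 library left out and no offset called it. Of the other 8 alternatives, the offset itself among them, 6 called Nrg1.

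Nrg2 encodes neuregulin 2, a ligand of ErbB3 and ErbB4. The gene (ENSMUSG00000060275.13, GRCm38 chromosome 18, 36017652 to 36197380, minus strand) spans 179.7 kb. It was at 64.1, 103.4, 101.9 and 161.7 CPM in controls 1 to 4 and at 84.8, 73.7 and 73.6 CPM in mutants 6 to 8. The 3 mutants lay close together and below 3 controls, whereas control 1 was the lowest of all 7 libraries. The means were 107.8 ± 40.3 CPM in controls (SD, n = 4) and 77.4 ± 6.44 in mutants (SD, n = 3), and the difference was not called (edgeR, log2 fold change -0.48, SE 0.23, adjusted p 0.250).

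With the length offset Nrg2 was lower in mutants and called, by -0.45 on the log2 scale (SE 0.13, edgeR adjusted p 0.0195). The length-adjusted values were 81.1, 101.6, 106.5 and 128.5 CPM in controls and 81.4, 74.0 and 73.9 CPM in mutants, so that control 1 and mutant 6 still overlapped. Under the offset the call was lost without mutant 7 (adjusted p 0.0873) or without mutant 8 (adjusted p 0.0854) and kept in the other 5 fits with 1 library removed. Without the offset Nrg2 was called when control 1 was left out (-0.65, adjusted p 0.0197) and was at -0.22 (adjusted p 0.392) when control 4 was left out. Those fits called 12.5% and 14.5% of all tested genes, with Nrg2 the 1 gene of the 8 in the first and Nrg1 in the second. When both of these controls were left out, Nrg1 (0.86, adjusted p 1.6e-05) and Nrg2 (-0.41, adjusted p 0.00368) were called beside 16.7% of all genes. When control 4 and mutant 8 were left out, Nrg2 was at -0.18 (adjusted p 0.626) and Nrg1 alone was called, beside 8.53% of all genes.

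Nrg3 encodes neuregulin 3, a ligand of ErbB4 found mostly in the nervous system. The gene (ENSMUSG00000041014.17, GRCm38 chromosome 14, 38368952 to 39473088, minus strand) spans 1104 kb. It was at 1440, 2143, 1794 and 2936 CPM in controls 1 to 4 and at 2024, 1820 and 1631 CPM in mutants 6 to 8. All 3 mutants lay inside the range of the controls, whose lowest and highest libraries differed 2.04-fold. The means were 2078 ± 640 CPM (SD, n = 4) and 1825 ± 196 CPM (SD, n = 3), and the difference was not called (edgeR, log2 fold change -0.19, SE 0.24, adjusted p 0.721). The sign turned without control 4, to 0.025 (adjusted p 0.947), and without control 4 and mutant 8, to 0.10 (adjusted p 0.837). After the length offset Nrg3 was at 2270, 2077, 1984 and 1837 CPM in controls and at 1850, 1838 and 1670 CPM in mutants. The spread of controls narrowed with controls 1 and 4 trading places, and the difference stayed at -0.19 (SE 0.09, edgeR adjusted p 0.172). Under the offset Nrg3 was called only without control 4, of 7 fits with 1 library left out (-0.24, adjusted p 0.0297).

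Nrg4 encodes neuregulin 4, a small ErbB4 ligand known from adipose tissue. The gene (ENSMUSG00000032311.17, GRCm38 chromosome 9, 55220222 to 55326844, minus strand) spans 106.6 kb. It was scarce, at 4.28, 6.42, 4.87 and 4.11 CPM in controls 1 to 4 and 4.62, 2.66 and 3.99 CPM in mutants 6 to 8, from 29 to 85 counts a library. The groups overlapped, and the difference was not called (edgeR, log2 fold change -0.38, SE 0.27, adjusted p 0.450). Its exons share 368 bases with Fbxo22 on the opposite strand, and the protocol in the labels does not state stranded counting, so a part of its low count is uncertain.

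Erbb4 encodes the receptor that binds all 4 neuregulins. The gene (ENSMUSG00000062209.15, GRCm38 chromosome 1, 68032186 to 69108059, minus strand) spans 1076 kb. It was at 2460, 3656, 3039 and 4082 CPM in controls 1 to 4 and at 4343, 4144 and 3405 CPM in mutants 6 to 8. Mutants 6 and 7 lay above every control, and mutant 8 lay within their range. The means were 3309 ± 710 CPM (SD, n = 4) and 3964 ± 494 CPM (SD, n = 3). They were not called different (edgeR, log2 fold change 0.26, SE 0.23, adjusted p 0.579). With the length offset the values were 3865, 3543, 3359 and 2563 CPM in controls and 3974, 4186 and 3485 CPM in mutants, which differed by 0.22 on the log2 scale (SE 0.12, edgeR adjusted p 0.242). The offset reversed the order of controls 1 and 4 here and left a wide control spread, at 3333 ± 554 CPM (SD, n = 4). Erbb4 was called in 0 of 22 alternatives, and its lowest adjusted p among them was 0.0779.

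Over the 7 libraries, the log2 CPM of Erbb4 was most like that of Nbea (Pearson r 0.993), Fer (0.990) and Nalcn (0.989), out of 11792 tested genes whose mean reached 5 CPM. These are descriptions over 7 libraries of 2 genotypes. All 3 are long genes, of 558.5, 276.4 and 350.5 kb. The 2432 tested genes of 100 to 800 kb were at a median 1.63-fold higher level in control 4 than in control 1. The part of that difference in the likeness to Erbb4 was not tested. None of these 3 was called (edgeR adjusted p 0.420, 0.473 and 0.644).

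Egfr encodes the receptor of EGF and of related ligands other than the neuregulins. The gene (ENSMUSG00000020122.16, GRCm38 chromosome 11, 16752203 to 16918158, plus strand) spans 166 kb. It was at 58.9, 86.2, 68.1 and 96.6 CPM in controls 1 to 4 and at 101.2, 92.8 and 74.4 CPM in mutants 6 to 8. The groups overlapped, and the means of 77.4 ± 17.1 CPM (SD, n = 4) and 89.4 ± 13.7 CPM (SD, n = 3) differed by less than the spread over libraries (edgeR, log2 fold change 0.21, SE 0.17, adjusted p 0.532).

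Erbb2 and Erbb3, the receptor without a known ligand of its own and the receptor with a weak kinase, were close to the floor. Erbb2 (ENSMUSG00000062312.5, GRCm38 chromosome 11, 98412470 to 98437716, plus strand) had 19, 11, 13 and 13 counts in controls 1 to 4 and 27, 9 and 21 counts in mutants 6 to 8 (log2 fold change 0.49, SE 0.40, edgeR adjusted p 0.534). That value moved to 0.19 without mutant 6 and to 0.78 without mutant 7, and it was not called in either fit. It lies 302.9 kb from Thra, on the same chromosome. Erbb3 (ENSMUSG00000018166.8, GRCm38 chromosome 10, 128567523 to 128589652, minus strand) had 9, 13, 8 and 13 counts in controls and 9, 4 and 19 counts in mutants (log2 fold change 0.05, SE 0.49, edgeR adjusted p 0.974). In both genes the groups overlapped widely, and with SEs of 0.40 and 0.49 a difference of the size measured for Nrg1 was not detectable at this depth.

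Nrg1, Nrg3 and Erbb4 have nearly the same genomic length, and read ratios among them within a library do not depend on library scaling. A smooth trend with length would act on them nearly alike. Control 4 nevertheless exceeded control 1 by 2.29-fold in Nrg1, 2.04-fold in Nrg3 and 1.66-fold in Erbb4. The ratios can therefore still carry a difference between these libraries. These ratios were chosen after the values were seen and carry no test. Nrg1 had 16.01, 17.1, 14.7 and 18.0 reads per 100 Nrg3 reads in controls 1 to 4 and 32.3, 29.9 and 32.1 in mutants 6 to 8. The ratio varied little within each genotype, and the groups lay far apart, at 16.45 ± 1.42 (SD, n = 4) and 31.4 ± 1.31 (SD, n = 3), a 1.91-fold difference. It stayed between 1.85-fold and 1.98-fold when single libraries, controls 1 and 4, or control 4 and mutant 8 were left out. Against the receptor, Nrg1 had 9.38, 10.0, 8.68 and 12.9 reads per 100 Erbb4 reads in controls and 15.04, 13.1 and 15.4 in mutants. The gap was smaller here, with mutant 7 just above control 4 (10.25 ± 1.87 and 14.5 ± 1.203, 1.42-fold). Nrg3 had 58.6, 58.6, 59.0 and 71.9 reads per 100 Erbb4 reads in controls and 46.6, 43.9 and 47.9 in mutants. All 3 mutants were below all controls, at 46.1 ± 2.03 against 62.0 ± 6.60, which is 0.744 of the control ratio and 0.785 of it without control 4.

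Non-overlap of such ratios was common among long genes. Of 96 tested genes over 800 kb other than Nrg3, 61.5% did not overlap between the groups when counted per Nrg3 read, and 51% did so when counted per Erbb4 read. By size, the log2 ratio of Nrg1 per Nrg3 read (0.93) was exceeded by 7 of these genes and was above that of 88, and the median over all 96 was 0.17. Per Erbb4 read, Nrg1 (0.50) was likewise exceeded by 7 genes, beside a median of -0.26, whereas Nrg3 (-0.43) stood amid the rest, with 64 genes higher and 31 lower.

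**Figure D4:**
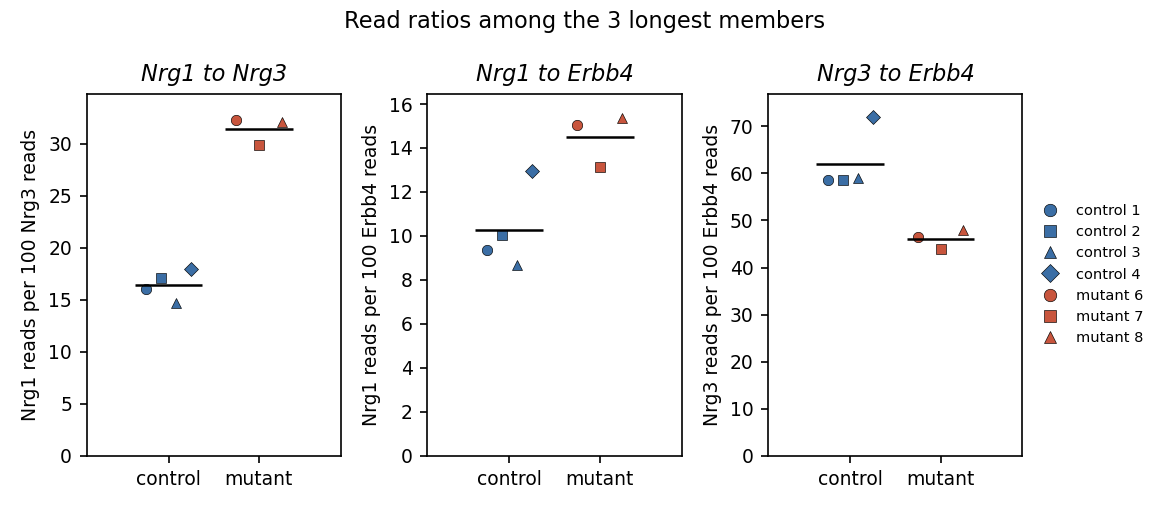
Reads of Nrg1 per 100 reads of Nrg3 (left), of Nrg1 per 100 reads of Erbb4 (middle) and of Nrg3 per 100 reads of Erbb4 (right) in each library (linear axes from 0), with bars at group means. In each panel the control and mutant libraries do not overlap, with group means of 16.45 and 31.4, of 10.25 and 14.5, and of 62.0 and 46.1.

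The other genes of the pathway were taken from a list of 95, of which 89 were tested. In edgeR 9 of them (10.11%) were called, 3 higher and 6 lower in mutants, close to the 9.42% of all tested genes, and the median log2 fold change was -0.02. With the length offset 20 were called (22.47%), 8 higher and 12 lower, beside 16.7% of all tested genes in that fit. For the genes called only with the offset, no fits with libraries left out are given. The 9 called genes did not overlap between the groups, but they were picked by the test on these same counts. Non-overlap is thus no further evidence for them. Over all tested genes, 22% did not overlap. With single libraries left out, the count ran from 2 without mutant 6 or without mutant 7 to 14 without control 4. The fit without control 4 called 14.5% of all tested genes. For the fits without mutant 6 or mutant 7 no such share is at hand, so their low counts are not a result about this list. Without control 4 and mutant 8 the count was 7, beside 8.53% of all tested genes. Of the 9 genes, Bace2, Spry1, Erbin and Cd44 were then not called (edgeR adjusted p 0.0508, 0.0754, 0.0614 and 0.106).

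Among the other EGF family ligands 0 of 7 tested genes were called, with 1 at an unadjusted p under 0.05 in edgeR. That gene was Cspg5, neuroglycan C, a proteoglycan of neurons with an EGF-like domain, at 137.3 to 152.6 CPM in controls and 157.6 to 183.6 CPM in mutants (log2 fold change 0.25, adjusted p 0.182). Hbegf and Tgfa, ligands of the EGF receptor, were at -0.09 and 0.17 (adjusted p 0.808 and 0.811). Areg, Ereg and Epgn had 0 to 2 counts in any library and were not tested.

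Of the proteases and cofactors that process the ligands, 2 of 15 tested genes (13.3%) were called, both lower, beside 9.42% of all tested genes. Bace2, a relative of the protease that cleaves neuregulin 1, fell from 7.95 ± 0.541 CPM (SD, n = 4) to 3.68 ± 1.03 CPM (SD, n = 3), by -1.12 on the log2 scale (edgeR adjusted p 0.00909). Without mutant 6 or mutant 8 its adjusted p was 0.0597 and 0.0607. Rhbdl3, a rhomboid family protein of the brain, fell from 41.4 ± 10.2 CPM to 24.4 ± 4.93 CPM, by -0.76 (adjusted p 0.0299), a call lost without control 2, control 3, mutant 6 or mutant 7 (adjusted p 0.0626 to 0.161). The main enzymes on neuregulin precursors were not called in this fit: Bace1 was at -0.06, Adam17 at -0.02 and Adam10 at -0.29 (edgeR adjusted p 0.786, 0.962 and 0.229). With the length offset 4 of the 15 were called (26.7%), 1 higher and 3 lower, beside 16.7% of all tested genes. The added ones were Adam10 (-0.30, adjusted p 0.0480), lower, and Rhbdf1, a rhomboid-like cofactor of Adam17 (0.69, adjusted p 0.00896), higher.

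Adaptors and kinases downstream of the receptors gave 1 called gene of 37 tested (2.7%), and 9 with the length offset (24.3%). Over all tested genes the shares were 9.42% and 16.7%. Jak2, a kinase of cytokine receptors that can also act below ErbB receptors, was at 60.4, 52.5, 52.9 and 64.1 CPM in controls 1 to 4 and at 85.4, 80.5 and 98.6 CPM in mutants 6 to 8. The groups were well apart, with a rise of 0.62 on the log2 scale (SE 0.12, edgeR adjusted p 0.00552). Jak2 was called in all 22 alternatives, with adjusted p up to 0.0434. The rest of the tested genes of that list were not called without the offset. With it, 5 were higher, Jak2, Pik3r3 (0.52), Nras (0.39), Map2k1 (0.31) and Fyn (0.29), and 4 were lower, Shc1 (-0.57), Pik3ca (-0.35), Ptpn11 (-0.30) and Akt1 (-0.30). Apart from Jak2, their adjusted p was from 0.00934 to 0.0486 with the offset and from 0.0600 to 0.420 without it. Pik3ca encodes a catalytic and Pik3r3 a regulatory subunit of phosphoinositide 3-kinase.

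The list of negative regulators gave 4 called genes of 20 tested (20%), 1 higher and 3 lower, beside 9.42% of all tested genes. With the length offset Wwp1, a ubiquitin ligase, was called too, lower (-0.34, edgeR adjusted p 0.0484). That made 25% of the tested genes of the list, beside 16.7% of all tested genes. Lrig3 belongs to a family of transmembrane proteins that act on ErbB receptors. Its own effect on them was not measured, so its place in the list does not give a direction. Lrig3 fell from 11.5 ± 3.94 CPM to 4.62 ± 0.642 CPM, by -1.31 (edgeR adjusted p 0.0151). Its control 4, at 5.81 CPM, stood near the mutants, of which the highest was at 5.16 CPM. Spry1, an inhibitor of Ras signalling, fell by 0.76 (12.8 ± 1.45 to 7.55 ± 0.621 CPM, adjusted p 0.0164). Socs5, which promotes the breakdown of the EGF receptor, fell by 0.60 (83.7 ± 10.2 to 55.0 ± 5.66 CPM, adjusted p 0.00928). Spred3, another kind of Ras pathway inhibitor, rose from 53.6 ± 3.99 to 71.0 ± 8.29 CPM (0.41, adjusted p 0.0467). With single libraries left out, adjusted p reached 0.0906 for Lrig3, 0.0889 for Spry1, 0.0700 for Socs5 and 0.218 for Spred3, so each of these calls was lost in at least 1 such fit.

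Of scaffolds and partners inside the cell or at its surface, 2 of 10 tested genes (20%) were called, with and without the length offset. Over all tested genes the shares were 16.7% and 9.42%. Erbin, which binds the tail of ErbB2, fell from 138.0 ± 9.93 to 106.3 ± 6.47 CPM, by -0.38 (edgeR adjusted p 0.0448). Cd44, a hyaluronan receptor that associates with ErbB receptors, rose from 5.10 ± 0.865 to 9.15 ± 0.888 CPM (0.84, adjusted p 0.0215). Both calls were lost without any 1 of control 2, control 3, mutant 6, mutant 7 or mutant 8 (adjusted p up to 0.213 for Erbin and 0.103 for Cd44). Dlg4, the postsynaptic scaffold PSD-95 that binds ErbB4, was at 0.20 and not called (adjusted p 0.359).

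The sorted cell type was checked against marker genes. Of 6 general GABAergic markers 5 had counts and were tested, with a summed level of 2348 to 2618 CPM in controls and 2253 to 2702 CPM in mutants, and 0 called. Dlx1, which lies within another gene, was listed at 0. Excitatory neuron markers summed to 76.8 to 143.5 CPM in controls and 81.9 to 135.0 CPM in mutants (0 of 7 called). Markers of oligodendrocytes and their precursors, cells in which Erbb3 is also known, summed to 166.2 to 207.8 CPM and 181.1 to 217.6 CPM, with 1 of 10 called (Mog, higher). Astrocyte markers summed to 150.6 to 271.1 CPM in controls and 157.8 to 189.8 CPM in mutants (0 of 6 tested called; Gfap, within another gene, listed at 0). Microglial markers summed to 13.6 to 18.2 and 17.7 to 22.4 CPM (0 of 5 tested called; P2ry12, likewise within another gene, listed at 0), and endothelial markers to 48.95 to 111.3 and 50.4 to 75.8 CPM (0 of 6). Markers of the interneuron classes, to which ErbB4 neurons belong, differed between genotypes in 2 of 4: Pvalb was lower (log2 fold change -4.48) and Sst higher (0.84). The part of these shifts in the values of the neuregulins and receptors was not tested.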

How the data were processed

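Nuclear RNA was measured in 8 libraries, of which 7 distinct ones were used. The labels' protocols give SMART-Seq v4 for cDNA synthesis and Nextera XT for the libraries, from individual cortices. The submitters' processing notes name Bowtie2 2.5.3 and the builds mm10 and GRCm38. The counting program and annotation are not given in the sources used here. The deposited values are whole-number read counts per gene, with no normalization by the authors recorded. All 55450 identifiers matched GENCODE M21. From the counts, R 4.3.3 with edgeR 4.0.16 gave filterByExpr (least count 10, least total 15), TMM scaling, and a robust quasi-likelihood test with group as the only term, two-sided, with Benjamini-Hochberg adjustment over all tested genes and a threshold of 0.05. The SE is the log2 fold change divided by the square root of F. The length offset was a loess trend (span 0.5), fitted in each library, of the deviation from a gene's mean log2 CPM (prior count 2) on the log of its genomic length. The alternatives used median-of-ratios scaling, DESeq2 1.42.0, no filter, limma 3.58.1 voom, sva 3.50.0, the length offset, and libraries left out. The edgeR fits, with and without the offset, were tested on simulated data. The simulated counts followed the same fitted model, so they cannot show whether the offset suits genes over 800 kb. Errors between animals rest on 4 and 3 libraries, and reads carry no molecular identifiers.

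The genes, lists and tests were chosen with earlier results of these data known. Named are the 8 genes, Thra, each called pathway gene, and the 3 genes most like Erbb4. Cspg5, Hbegf, Tgfa, Bace1, Adam10, Adam17, Dlg4 and the genes called only with the length offset were named outside that rule, after their values were seen.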

Additional observations from a re-analysis of the deposited data

Results flagged for a closer look

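Of 36 values checked for a single library far from the other controls, 1 stood out. Chance alone gives about 1 in 20, so 1 of 36 is no more than chance would give. Control 4 had 71.9 reads of Nrg3 per 100 reads of Erbb4, while the other 3 controls lay between 58.6 and 59.0, so that this gap took nearly the whole range of the group. Without control 4 the control mean was 58.7, the mutant mean was 46.1, and the groups still did not overlap. Control 4 is also the library with the highest level of long genes and 1 of the 2 without Y-linked reads. The part of either in this ratio was not tested.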

How the results depend on the processing

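None of the 8 genes was called in the reported fit, with median-of-ratios scaling or without the filter. The number of the 8 genes called was 1 with DESeq2, 2 with limma-voom, 2 with the length offset, 2 with 1 surrogate variable, 2 without controls 1 and 4, 1 without control 4 and mutant 8, and 0 to 1 when single libraries were left out. With the offset and a single library left out, an alternative added after the data were seen, it was 1 to 3. For the pathway list, 9 genes in the reported fit became 15 with DESeq2, 22 with limma-voom, 20 with the offset, 26 with the surrogate variable, 19 without controls 1 and 4, 2 to 14 with single libraries left out, and 7 to 22 with the offset and a single library left out. Calls over all tested genes moved too, from 9.42% to 12.1% with DESeq2, 19.1% with limma-voom, 16.7% with the offset, 22.6% with the surrogate variable and 16.7% without controls 1 and 4. They were 12.5% without control 1, 14.5% without control 4 and 8.53% without control 4 and mutant 8. The cause of these moves was not tested. For the other fits with 1 library left out, with or without the offset, no share of all tested genes is at hand. The numbers called in those fits thus have no background beside them. Over single libraries left out, Nrg3 ran from -0.32 to 0.025 and Erbb3 from -0.61 to 0.39, while Nrg4 (-0.56 to -0.19), Egfr (0.10 to 0.33), Erbb2 (0.19 to 0.78) and Erbb4 (0.15 to 0.38) kept their sign and were not called. Nrg3 turned from -0.19 to 0.025 without control 4 and to 0.10 without control 4 and mutant 8. Erbb3 turned from 0.05 to -0.015, -0.076 and -0.61 without control 1, control 3 or mutant 8, and to -0.036, -0.092 and -0.609 for the same with the offset, on 4 to 19 counts a library. Erbb3 failed the filter without control 2, without control 4, and without control 4 and mutant 8, so those fits give no value. No paired analysis was possible because the labels give no pairing of control with mutant animals.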
